A study of Mus musculus with 3 samples.

Results

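The locus described here is a 1.4 Mb stretch of mouse chromosome 13 that holds Mef2c and, beyond it, the long non-coding transcript that hosts the microRNA gene Mir9-2. Its members were all peaks of trimethylated histone H3 lysine 4 (H3K4me3) that overlapped positions 83600000 to 85000000 of chromosome 13 in build mm9. They numbered 31 of 38146 peaks in the series. Of these, 14 of 19631 were in the library from N171-82Q mice (HD) and 17 of 18515 in the library from wild-type littermates (WT). The locus was chosen from these same lists because it holds the widest peak of the series, so the widths and the differences between the libraries given below describe it and test nothing.

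The mark was mapped by sequencing of DNA precipitated with an antibody to H3K4me3 (ChIP-seq), in hippocampus of adult male C57/DBA F1 hybrid mice. The HD library came from N171-82Q mice, which carry a transgene for an N-terminal fragment of huntingtin with an expanded glutamine tract under the promoter of the mouse prion protein gene, and model Huntington's disease. The WT library came from littermates without the transgene. Each library was made from the whole hippocampi of 3 pooled mice, so all cell types of the tissue were mixed, and a change in the cells present and a change in the mark per cell cannot be told apart. There was 1 library per genotype, so no difference below could be set against a spread between mice, and no test was made. The peak lists name no genes, and hippocampal marker genes and the transgene itself were not analysed here. Each peak carries the authors' score, which runs from 50.01 to 3233.06 in both lists. It is used here to describe a peak within its own list, whose median score was 1144 for HD and 843 for WT. Read depth is unknown, because the files hold no counts. Per the labels, the WT reads had been deposited before, with an earlier series, and no such remark stands on the HD library; a difference in when or how the libraries were made and a difference in genotype cannot be told apart.

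H3K4me3 marks the start sites of active genes and of genes held ready for activation. At most genes it covers a short stretch around the start site, whereas at some genes that define a cell type it spreads over many kilobases. MEF2C is a transcription factor of the MADS-box family that in the brain controls the differentiation of neurons and the number of their synapses. miR-9 is a microRNA abundant in the nervous system, known for its part in the formation of neurons from progenitors. Mir9-2 is 1 of 3 mouse genes that give rise to it.

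In the RefSeq gene table (build GRCm38.p6, used here for names and gene order only) Mir9-2 lies inside C130071C03Rik, a long non-coding RNA gene. Mef2c is the protein-coding gene before it and Tmem161b the next protein-coding gene after it. Between Mef2c and Tmem161b the table has 12 genes, namely 6 long non-coding RNAs, 2 microRNAs and 4 pseudogenes. The widest domain lies in the region given for the host transcript, and is called the Mir9-2 domain here for that reason. Whether it covers Mir9-2 itself was not analysed here. The microRNA sequences below show the product of Mir9-2. They were taken from RefSeq (GRCm38.p6, chromosome 13, plus strand), with the seed, bases 2 to 8, in capitals in the mature arms and the 2 mature arms in capitals in the hairpin.
mmu-miR-9-5p: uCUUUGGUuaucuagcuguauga
mmu-miR-9-3p: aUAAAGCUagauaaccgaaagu
Mir9-2 hairpin: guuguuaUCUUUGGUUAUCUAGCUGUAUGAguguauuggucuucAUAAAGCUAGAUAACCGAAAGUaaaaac

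Both mature arms were identical in sequence in Mir9-1, Mir9-2 and Mir9-3. Among 1738 mature entries of the table, 3 carried the seed of miR-9-5p and 3 that of miR-9-3p, and all of them came from these 3 genes. A measurement of mature miR-9 therefore does not tell its 3 genes apart.

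RefSeq lists 3 start sites each for Mef2c and for C130071C03Rik, with sequence from 250 bases before to 50 after each. The windows with the fewest and the most CG dinucleotides of Mef2c and that with the most of C130071C03Rik are shown, since H3K4me3 is common at start sites rich in CG. All 3 are on the plus strand, and each CG is in capitals. Their GRCm38.p6 coordinates cannot be compared with the mm9 coordinates of the peaks, so no window was assigned to a peak. They are chr13:83503784-83504083 for Mef2c start site 1, chr13:83523406-83523705 for Mef2c start site 2 and chr13:83721131-83721430 for C130071C03Rik start site 1.
Mef2c start site 1: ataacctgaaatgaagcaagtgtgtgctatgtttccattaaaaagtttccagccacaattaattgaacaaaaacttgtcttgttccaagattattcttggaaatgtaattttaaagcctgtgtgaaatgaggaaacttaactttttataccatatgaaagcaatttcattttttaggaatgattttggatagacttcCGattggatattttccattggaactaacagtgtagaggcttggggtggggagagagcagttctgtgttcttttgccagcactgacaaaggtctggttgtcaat
Mef2c start site 2: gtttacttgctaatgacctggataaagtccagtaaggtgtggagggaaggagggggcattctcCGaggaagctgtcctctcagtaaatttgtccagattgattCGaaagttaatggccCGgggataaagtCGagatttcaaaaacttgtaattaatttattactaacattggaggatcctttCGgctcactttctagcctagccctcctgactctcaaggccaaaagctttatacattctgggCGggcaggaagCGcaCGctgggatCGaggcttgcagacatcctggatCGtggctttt
C130071C03Rik start site 1: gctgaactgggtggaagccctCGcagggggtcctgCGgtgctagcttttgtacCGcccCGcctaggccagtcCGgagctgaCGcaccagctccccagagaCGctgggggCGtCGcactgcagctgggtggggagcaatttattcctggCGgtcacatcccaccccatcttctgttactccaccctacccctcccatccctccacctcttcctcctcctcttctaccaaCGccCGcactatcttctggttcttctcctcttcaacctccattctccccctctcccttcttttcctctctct

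Mef2c start site 1 held 1 CG in 300 bases, and 94.6% of the 32851 start-site windows in the table held at least as many. Mef2c start site 2 held 10, a number reached by 43.5% of windows, and start site 3 held 4, reached by 68.6%. The 3 windows of C130071C03Rik held 12, 4 and 7 CG, where the median of all windows was 7. CG reads the same on both strands, so each count covers both.

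The wide domain over the Mir9-2 host region was marked in both hippocampi over nearly the same span, but it was called as 4 peaks in HD and as 1 peak in WT. The HD peaks covered 21899 bp and the WT peak 23847 bp, which is 8.17% less in HD (log2 ratio of HD over WT -0.12). Among all 17367 regions with a peak in both libraries, the median log2 ratio was -0.09 (quartiles -0.22 and 0.03), and 42.7% of the regions had a lower ratio than the domain. The difference in length at the domain thus lay near the middle of the values for this pair of libraries.

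The 4 HD peaks of the domain lay at 83852943 to 83857237, 83857577 to 83868932, 83868969 to 83874142 and 83875145 to 83876218. They were 4295, 11356, 5174 and 1074 bp wide, and the widest of them ranked 9 by width in the HD list. Their scores were 2007.65, 2853.84, 3100 and 73.6, higher than 68.9%, 84.2%, 87.5% and 9.23% of the HD list. The middle part of the domain thus carried high scores in HD, and its last piece was a weak peak near the lowest score of the list. The value 3100 is shared by 2184 HD peaks, so it does not rank these against each other, and 87.5% of the HD list scored lower.

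The WT peak ran from 83852345 to 83876191 with a score of 2868.73, higher than 95.7% of the WT list. Its width ranked 1 in that list. The next widest WT peak, on chromosome 15 at 85499258 to 85515292, was 16035 bp wide. Inside the domain the HD peaks left 3 gaps, of 339, 36 and 1002 bp. These began 4.89, 16.59 and 21.80 kb from the left edge of the WT peak. The gaps made up 1377 bp together. The first HD peak began 598 bp to the right of the WT edge, and the last one ended 27 bp beyond the WT peak. The shorter HD length at this domain therefore came from the gaps and the left edge, while the right edges nearly coincided.

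Division into more peaks in HD than in WT was uncommon across the genome, at 2.13% of all shared regions, and was found in 2 of 10 shared regions of the locus. Among the 21 other shared regions with a mean covered length of at least 10 kb, HD had more peaks in 7, the same number in 13 and fewer in 1. The 2 widest of these were the regions on chromosome 15 and chromosome 12. On chromosome 15 at 85499110 to 85516810 the 2 HD peaks covered 17626 bp with a gap of 75 bp, and the 2 WT peaks 17072 bp with a gap of 416 bp. On chromosome 12 at 50474576 to 50489818 there were 4 HD peaks with gaps of 279, 80 and 325 bp, and 1 WT peak of 15243 bp. The gap of 1002 bp at the Mir9-2 domain was the widest within any of these regions in either library. The log2 ratios of the 21 regions ran from -0.26 to 0.22 with a median of -0.05, and 14 of them were shorter in HD.

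How wide the domain is depended on the distance over which neighbouring peaks were joined. After joining HD peaks within 1 kb, the domain still formed 2 pieces, since the third gap was wider, and the larger of them was 21200 bp. It ranked 2 by width in the HD list, behind a piece of 21733 bp on chromosome 12. After the same step in WT, the domain merged with the next peak into a single peak of 29519 bp, which ranked 1. With peaks within 2 kb joined, a distance chosen after the gaps had been seen, the HD piece was 28029 bp and the WT piece 29519 bp, each the widest of its list.

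**Figure D1:**
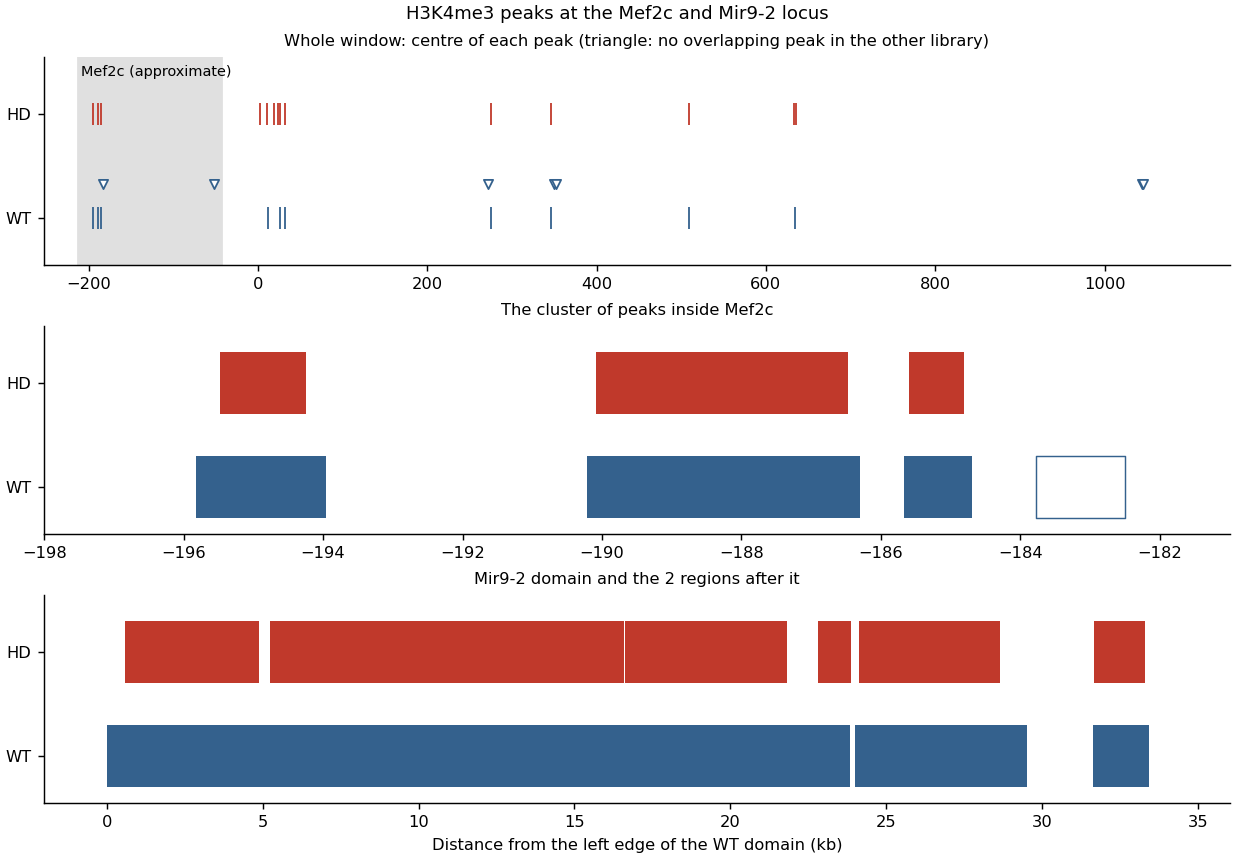
Positions of the H3K4me3 peaks in kb from the left edge of the WT domain, with HD above WT. The top panel marks the centre of each peak (14 HD, 17 WT) and shows as triangles the 7 WT peaks that no HD peak overlapped; grey marks the approximate extent of Mef2c. The lower panels draw peak widths to scale and show the 4 HD peaks and 1 WT peak of the domain, with HD gaps of 339, 36 and 1002 bp.

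Next to the domain a further marked region followed almost without a break. The HD peak there, at 83876472 to 83880971, covered 4500 bp with a score of 1368.18, and the WT peak, at 83876335 to 83881863, covered 5529 bp with a score of 1019.76. The log2 ratio was -0.30. The HD peak began 253 bp after the last HD peak of the domain, and the WT peak 143 bp after the WT domain. Its right edge lay 892 bp further left in HD. Another region, at 83883974 to 83885756, had 1656 bp in HD and 1783 bp in WT (log2 ratio -0.11), with both pairs of edges within 109 bp. The run of marked chromatin that starts with the Mir9-2 domain thus ended at nearly the same place in both libraries.

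Inside Mef2c, which extends over about 83640000 to 83810000, the mark formed a cluster of peaks in the first part of the gene and was called in fewer places in HD. HD had 3 peaks covering 5631 bp, and WT had 5 peaks covering 9088 bp, a log2 ratio of -0.69. All 3 HD peaks lay within WT peaks. The 2 WT peaks without an HD counterpart, at 83668573 to 83669845 and 83800357 to 83801409, were weak, with scores of 69.6 and 76.3. They held 1273 and 1053 bp.

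The strongest peak of Mef2c as deposited had nearly the same extent in both. The HD peak at 83662257 to 83665867 was 3611 bp wide with a score of 1861.69, and the WT peak at 83662132 to 83666043 was 3912 bp wide with a score of 1666.14. The log2 ratio of -0.12 lay close to the median of all shared regions. As deposited, the peak was wider than 90.1% of HD peaks in HD and than 89.7% of WT peaks in WT. With peaks within 1 kb joined, the region also took in the weak peaks after it and the bases between them. Among these was a WT peak with no HD counterpart, and the ratio of the joined region was -0.55.

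The first peak of the gene differed more. At 83656871 to 83658093 the HD peak was 1223 bp wide, and at 83656520 to 83658381 the WT peak was 1862 bp wide. The HD peak covered 65.7% of the WT length (log2 ratio -0.61), with its left edge 351 bp and its right edge 288 bp inside the WT edges. Its score was 1132.46 in HD, higher than 49.7% of the HD list, and 698.16 in WT, higher than 45.2% of the WT list. The peak was thus shorter in HD at a middle position among the scores of both lists. The third peak of the cluster, at 83666669 to 83667656, was weak in both, with 797 bp and a score of 75.51 in HD and 988 bp and a score of 54.25 in WT. Whether these peaks lie over start sites, exons or introns of Mef2c was not analysed here.

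In all 10 regions of the locus that both libraries marked, HD covered fewer bases than WT. Across the series that was so in 69.0% of shared regions. The log2 ratios ran from -0.61 to -0.11 with a median of -0.30, against a median of -0.09 over all shared regions. More than 1.5-fold shorter in HD were 2 of the 10, the first Mef2c peak and the last shared region of the flank, where 2.79% of all shared regions passed this fold. None was more than 1.5-fold longer, a fold that 0.749% of all shared regions passed. In 8 of the 10 regions the HD peaks reached past the WT peak at neither end, and 42.6% of all shared regions were like this.

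**Figure D2:**
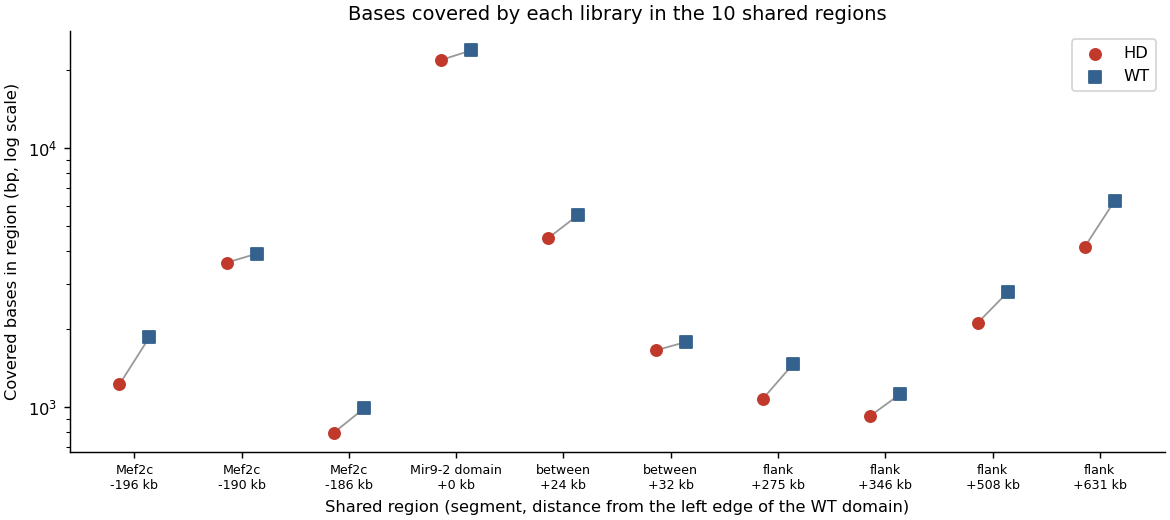
Bases covered by HD (circles) and WT (squares) in the 10 shared regions, on a log axis and in order along the chromosome. HD lies below WT in each pair; the domain has 21899 bp in HD and 23847 bp in WT, and the steepest pairs are the first Mef2c region and the last flank region.

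**Figure D3:**
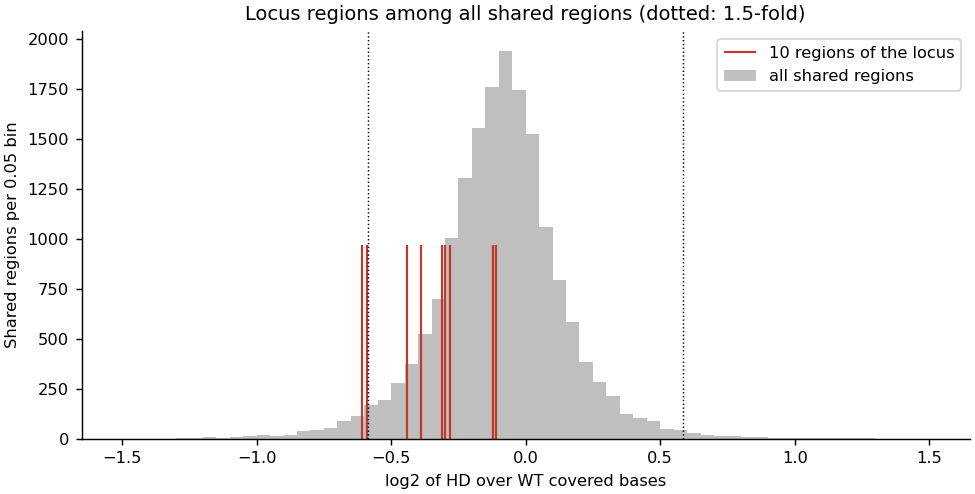
Distribution of the log2 ratio of HD over WT covered bases over 17367 shared regions (grey bars, 0.05 per bin), with the 10 regions of the locus as red lines whose height has no meaning. All 10 lie below 0, and 2 lie beyond the dotted 1.5-fold line on the left.

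The flank beyond 84 Mb differed most between the libraries. HD had 5 peaks covering 8273 bp there, and WT had 9 peaks covering 17476 bp, a log2 ratio of -1.08. Weak WT peaks that no HD peak overlapped, 5 in number, held 5841 bp of the WT length. The rest of the difference lay in shared regions, each shorter in HD.

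The last shared region was the largest of the flank. At this place 2 HD peaks, at 84485256 to 84486318 and 84486628 to 84489723, were 1063 and 3096 bp wide with scores of 81.64 and 1369.95. The single WT peak at 84483649 to 84489921 was 6273 bp wide, with a score of 1221.4 and a width rank of 262 in the WT list. The log2 ratio was -0.59, lower than in all but 2.65% of shared regions. The left edge lay 1607 bp inside the WT edge in HD, and the right edges differed by 198 bp. The difference was thus at the left side of the region, where HD had a weak peak and a gap of 309 bp. With peaks within 1 kb joined, the ratio was -0.49 and no longer past 1.5-fold.

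The strongest flank peak lay at 84360933 to 84363043 in HD and 84360554 to 84363327 in WT. It was 2111 bp wide with a score of 2339.99 in HD, and 2774 bp wide with a score of 1606.71 in WT. The log2 ratio was -0.39, and its score exceeded that of 75.8% of HD peaks in HD and of 76.2% of WT peaks in WT. In the gene order of RefSeq the next protein-coding gene after Mef2c is Tmem161b, but no flank peak was assigned to a gene. The remaining shared regions of the flank were weak in HD. At 84126958 to 84128466 the HD peak had 1078 bp and a score of 95.97 and the WT peak 1465 bp and a score of 207.44. At 84198294 to 84199416 the HD peak had 925 bp and a score of 60.77 and the WT peak 1123 bp and a score of 63.86.

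Every HD peak of the locus overlapped a WT peak, whereas 7 of the 17 WT peaks, 41.2%, overlapped no HD peak. Over the whole lists these shares were 9.30% for HD and 5.50% for WT. The library with more unmatched peaks was therefore HD in the series and WT at this locus. Of the HD bases in the locus 99.8% also lay in WT peaks, and of the WT bases 72.6% lay in HD peaks. Over the whole lists these shares were 91% and 87.1%.

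All 7 unmatched WT peaks had scores below 100, from 50.28 to 93.7, in a list that starts at 50.01. Their widths ran from 822 to 1618 bp, and together they covered 8167 bp. Among peaks with scores below 100, 0 of 5 in HD and 7 of 9 in WT had no counterpart at the locus. Of these 5 HD peaks, those at 83875145 and 84485256 were pieces of regions that WT marked as 1 wide peak, of 23847 and 6273 bp. Their overlap goes with the division of those regions in HD. Over the whole lists, 50.5% of HD peaks and 32.8% of WT peaks with scores below 100 had no counterpart. Every peak of the locus with a score of at least 100, 9 in HD and 8 in WT, had a counterpart. The unmatched peaks of the locus were thus all weak, as most unmatched peaks were in both lists. In the whole lists, 1450 of 1825 unmatched HD peaks and 912 of 1019 unmatched WT peaks scored below 100.

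The distance of the unmatched WT peaks from the nearest HD peak varied widely. The peak at 84124016 to 84125240 had a score of 93.7 and lay 1.72 kb from the nearest HD peak. Those at 84201133 to 84202313 and 84203687 to 84204508 had scores of 60.92 and 52.43 and lay 1.73 and 4.29 kb away. In Mef2c the peak at 83668573 lay 1.03 kb from an HD peak and that at 83800357 lay 51.5 kb away. A pair at 84895369 to 84896986 and 84897384 to 84898378, with scores of 78.85 and 50.28, stood far from any other, 406 and 408 kb from the nearest HD peak.

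**Figure D4:**
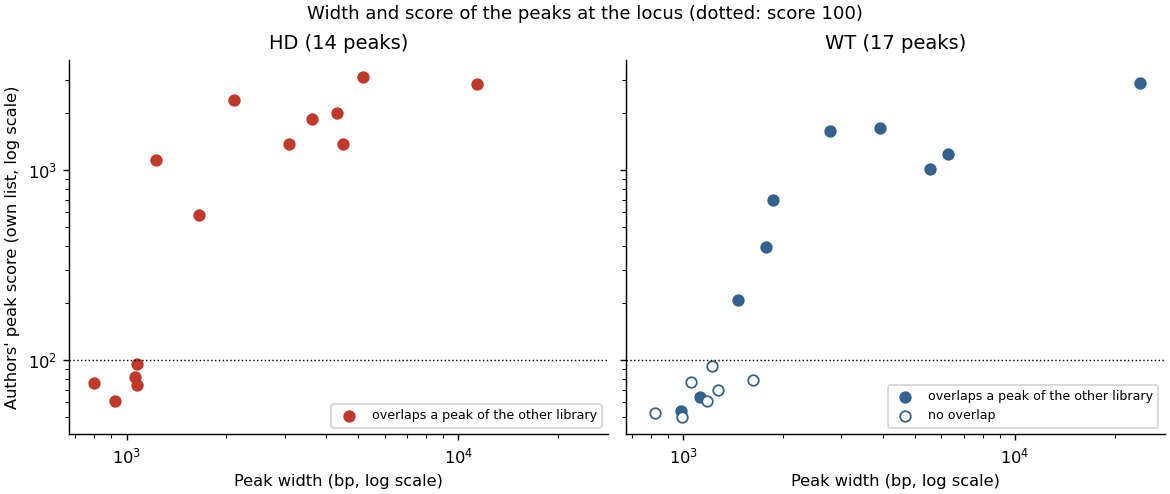
Width against the authors' score, both on log axes, for the 14 HD peaks (left) and the 17 WT peaks (right) of the locus; open circles are WT peaks that no HD peak overlapped. All 7 open circles lie below the dotted line at a score of 100, and the 5 HD peaks below that line all overlapped a WT peak. Scores are on the scale of each list.

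In all, the HD peaks of the locus covered 41959 bp and the WT peaks 57723 bp, a log2 ratio of -0.46, where the whole lists gave -0.06 and chromosome 13 gave -0.09. The domain alone held 52.2% of the HD bases and 41.3% of the WT bases. The 15764 bp fewer in HD were spread unevenly. The flank accounted for 9203 bp of them, Mef2c for 3457 bp, the domain for 1948 bp and the 2 regions after it for 1156 bp. Of these 4 segments, the wide domain was the one where the libraries differed least in proportion.

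The stretch without peaks before the locus was longer than that after it. Before its first peak lay 1.57 Mb free of peaks in HD and likewise in WT, and 0.989% of the gaps between neighbouring peaks in the HD list and 1.02% in the WT list were longer. The nearest peaks outside the window on that side, at 82083107 to 82083868 in HD and 82082881 to 82084046 in WT, had scores of 87.65 and 121.55. After the last peak inside the window lay 0.84 Mb free of peaks in HD, with 2.55% of gaps in that list longer, and 0.41 Mb in WT, with 6.98% longer. The nearest peaks on this side were at 85328709 to 85330042 in HD, with a score of 2056.78, and at 85304083 to 85304662 in WT, with a score of 77.61. Just inside the window lay the first Mef2c peaks on one side, and the HD peak at 84486628 and the WT peak at 84897384 on the other.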

How the data were processed

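Peak lists of 1 HD and 1 WT H3K4me3 library were analysed; the input library was not used. Positions are in mm9, also called NCBIM37, and reads were handled with BWA 0.5.9, CASAVA 1.8.2 and SAMtools, per the submitters' processing notes. The peak names, per the files, carry the name MACS; the version and settings of that peak caller, and any control, are not stated in the sources used here. The deposited score per peak is the authors' and has no stated unit. Other values, the deposited starts and ends, are whole base positions, given here counted from 1.

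A counterpart is a peak of the other list overlapping by at least 1 bp. Overlapping peaks of both lists were joined into regions, and covered bases were compared as log2 of HD over WT. Computations used Python 3.11.15, numpy 2.4.6 and pandas 2.3.3, and plots matplotlib 3.10.9. The procedure was tested on simulated lists. The approximate extents of Mef2c and the Mir9-2 host region came with the definition of the locus and were not checked against an mm9 annotation. The locus, the comparisons and the alternatives were chosen with earlier results of these data known. All peaks in the window are named, with the nearest ones outside it and the 2 next widest regions.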

Additional observations from a re-analysis of the deposited data

How the results depend on the processing

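No setting tried turned the direction of any covered-base ratio: all 57 log2 ratios recomputed were below 0. Of the 104 recomputed values, 72 stayed within 1.5-fold for counts or 0.1 for log2 ratios. These are not separate checks, since a joined region was counted for each region it took in, and some settings could not raise a ratio. The domain ratio was -0.12 as deposited and -0.04 with peaks within 2 kb joined, where the 1377 bp of HD gaps count as covered. HD peaks without a counterpart numbered 0 as deposited and under every setting. Only asking for 50% of a peak to be covered, or for a score of at least 100, could have raised this number. With scores of at least 100 in both lists, the window held 9 HD and 8 WT peaks, and 1 WT peak had no counterpart. That peak, at 84127002 to 84128466, overlapped only an HD peak with a score of 95.97, which this setting removed. The log2 ratio was -0.36 for the window and -0.26 for Mef2c. The last flank region, without its HD peak with a score of 81.64, gave -1.02. With peaks within 1 kb joined, there were 9 HD peaks, 2 of them over the domain, and 1 region was over 1.5-fold shorter in HD. Joining within 2 kb, chosen after seeing the data, gave 8 HD and 10 WT peaks, with 1 HD peak over the domain. Under it 2 WT peaks had no counterpart, the flank ratio was -1.40 and 3 regions were over 1.5-fold shorter in HD. The flank regions at 84126958 and 84198294 gave -2.05 and -2.75, against -0.44 and -0.28 as deposited. They were joined there with WT peaks that had no HD counterpart, and the bases between joined peaks count as covered. In WT these bases were 1761 bp at the first region and 1716 and 1373 bp at the second. For the score and joining settings, shares over the whole lists were not computed, so their counts stand without a background. In the narrower window, which ends at 84000000, there were 9 HD and 8 WT peaks, 2 WT peaks without a counterpart, 6 shared regions, 6 of them shorter in HD and 1 over 1.5-fold, and a ratio of -0.26; its fewer peaks follow from its length. Equal numbers of top scoring peaks gave -1.25 for the flank, against -1.08 as deposited. This setting removed peaks from the longer HD list only, so it could not raise the ratio. Peak counts under joining follow from the spacings of the peaks. The other changes were not traced to single peaks. No paired analysis was possible because there was a single library of each genotype. Depth is unknown, which limits what the absence of a weak peak in HD can show.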

Other observations

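The locus was compared with stretches of the same length, 1.4 Mb, laid end to end along every chromosome. It was chosen because it holds the widest peak of the series. The domain alone held 52.2% of its HD bases and 41.3% of its WT bases. Its rank by covered bases therefore reflects that choice in part and tests nothing. Peaks of the locus were counted by any overlap, and those of the stretches by their midpoint. Of 1891 stretches, 24.7% had more HD peaks and 15.9% more WT peaks than the locus. More bases were covered in 14.9% of stretches in HD and in 8.99% in WT. The median stretch held 8 peaks in HD and 7 in WT.

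The spacings between neighbouring peaks matched at some places and not at others. Between the cluster in Mef2c and the Mir9-2 domain HD had no peak over 185 kb, and WT had 1 weak peak between its cluster and the domain, 131 kb after the cluster and 50.9 kb before the domain. After the last shared region HD had no further peak in the window, and WT had a pair of weak peaks 405 kb away. From the last region after the domain to the first flank peak lay 241 kb in HD and 238 kb in WT. That flank peak was not the same in both: it was the shared one at 84126958 in HD and the unmatched one at 84124016 in WT. From the flank peak with the highest score to the last shared region lay 122 kb in HD and 120 kb in WT.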
